A study of Homo sapiens with 2 samples.

Results

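The genes described here are 45 genes of S phase and mitosis, the parts of the cell cycle in which DNA is copied and chromosomes are separated. They were listed by name without a cut-off on level, but with earlier results of these data known. The list holds MCM2 to MCM6, PCNA and other replication genes, and the cyclins E, A and B with their kinases. It also holds genes of the spindle, centromere and spindle checkpoint. Each of the 45 had exactly 1 row among the 21445 genes of the mRNA table, and all 45 are listed as protein-coding, of 14376 such genes. Because replication genes and mitotic genes act in successive phases, 9 replication genes (MCM2, MCM3, MCM4, MCM5, MCM6, PCNA, RRM1, RRM2 and TYMS) were set beside 28 genes of G2 and mitosis. Another 4 members belong to replication (TK1, CDC6, CDT1 and GINS2) and 4 to the entry into S phase (E2F1, CCNE1, CCNE2 and CDK2).

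The levels come from 1 mRNA library of untreated U87MG cells, an established human glioblastoma cell line grown in MEM with 10% FBS and 1% antibiotics. The labels give an integrity number of 9.3 for the total RNA. The series also holds 1 small RNA library of the same line. There was no replicate, no normal glial cell and no arrested or synchronised culture, so no value below has an error or a test. Of 7 astroglial markers GJA1 (143 FPKM), GLUL (35.3) and SLC1A3 (19.3) were present, GFAP, the filament protein that defines mature astrocytes, stood at 0.331, and S100B, AQP4 and ALDH1L1 had no row. Of 6 immune markers 4 had no row and none reached 1 FPKM, and of 5 endothelial markers KDR alone did, at 3.29.

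Before S phase, licensing factors load the MCM helicase onto replication origins. Cyclin E with CDK2 then helps to fire them, and transcription of the replication genes is switched on by E2F factors. Mitotic genes are switched on later, in G2, through the MuvB complex with B-MYB and FOXM1, and many of their products are destroyed by the anaphase-promoting complex as the cell divides. In growing tumour cells such as glioblastoma lines these genes serve as markers of proliferation. In RNA from a mixed culture, fewer cells in a phase and less RNA per cell in that phase cannot be told apart.

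All 45 members were above 1 FPKM (fragments scaled by gene length and library size, so that genes of different length can be compared), against 64.6% of all listed genes and 77.5% of coding genes. At 10 FPKM or more stood 38 of the 45, against 43.8% of coding genes, and at 50 or more 8, against 9.35%. Their median was 21.9 FPKM, above 77.1% of coding genes, whose own median was 7.82. The members spanned a 25.0-fold range, from 3.92 FPKM for the CDK1-activating phosphatase CDC25C to 98.1 for the replication clamp PCNA. Together they made up 0.354% of the FPKM sum of coding genes, which themselves held 10.6% of the sum over all listed genes. The highest listed gene, not a coding one, alone stood at 1436980 FPKM of that sum of 3532705. The 10.6% is therefore not read as the coding share of the RNA.

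**Figure D1:**
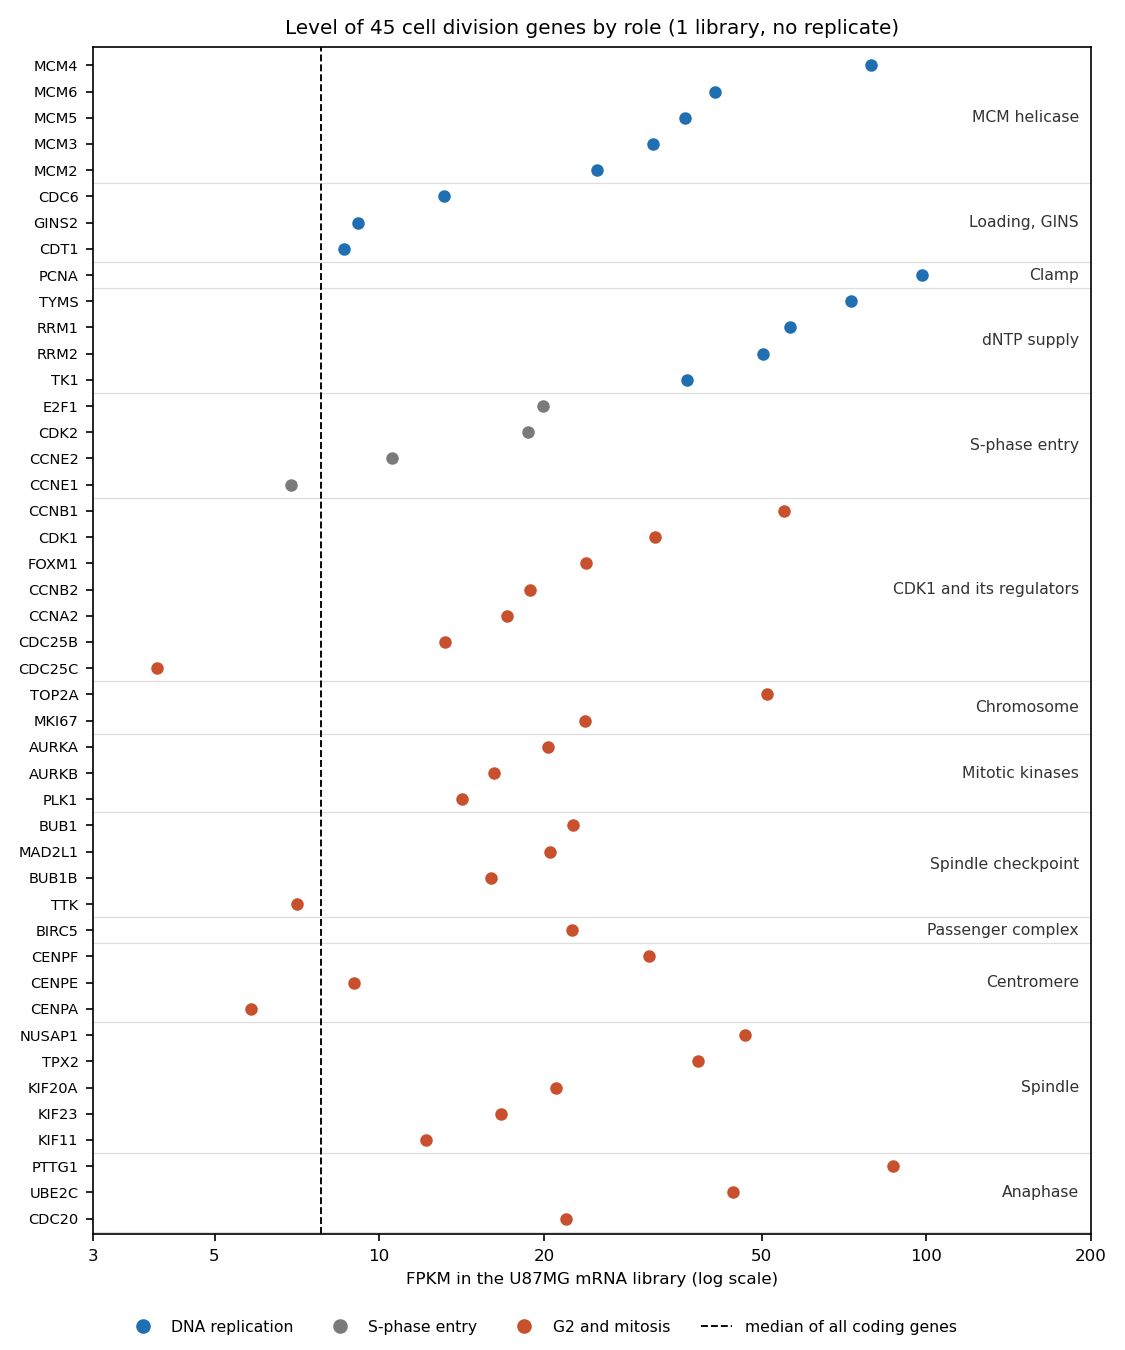
FPKM of each of the 45 genes in the single U87MG mRNA library (log axis), grouped by role and coloured by phase; the dashed line is the coding median of 7.82 FPKM. TTK, CCNE1, CENPA and CDC25C lie to the left of the line, and PCNA, PTTG1 and MCM4 lie farthest to the right.

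The helicase subunits were well expressed and unequal. MCM2 to MCM6 are subunits of a single ring that unwinds DNA and holds each of them once. MCM4 stood at 79.4 FPKM, MCM6 at 41.1, MCM5 at 36.3, MCM3 at 31.6 and MCM2 at 25.0. MCM4 thus stood 3.18 times as high as MCM2, and apart from the other 4. PCNA, the sliding clamp that holds the polymerases on DNA, was the highest member at 98.1 FPKM and ranked 569 among coding genes.

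The factors that load and activate the ring were far lower. CDC6, which recruits the helicase to origins, stood at 13.2 FPKM. Its partner CDT1, which is degraded once S phase starts, stood at 8.62. GINS2, part of the 4-subunit GINS complex that completes the active helicase, stood at 9.13. All 3 were below the lowest helicase subunit, and PCNA was 11.4 times as high as CDT1.

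Enzymes of nucleotide supply had a higher median than the 5 helicase subunits, 53.3 against 36.3 FPKM, though MCM4 (79.4) stood above each of them. RRM1 and RRM2, the large and small subunits of ribonucleotide reductase, which makes deoxyribonucleotides, were nearly level at 56.2 and 50.4 FPKM. TYMS, the thymidylate synthase and target of fluoropyrimidine drugs, stood at 72.9. TK1, the thymidine kinase of the salvage route, stood at 36.5. The 4 enzymes had a median of 53.3 FPKM, above 91.4% of coding genes.

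Genes that start S phase were all lower than the 9 replication genes. The transcription factor E2F1 stood at 19.9 FPKM and the kinase CDK2 at 18.7. Of the 2 E-type cyclins that activate CDK2, CCNE2 stood at 10.5 and CCNE1 at 6.89, the latter below the coding median. Cyclin A2 (CCNA2), which takes over CDK2 in S phase and later binds CDK1, stood at 17.1 FPKM, 2.49 times CCNE1.

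Among the regulators of mitotic entry, cyclin B1 led and CDC25C was last. CCNB1 stood at 55.0 FPKM, 2.92 times its relative CCNB2 at 18.9. CDK1, the kinase that both B cyclins activate, stood at 32.0. FOXM1, the factor that drives late cell cycle transcription, stood at 23.9. The 2 phosphatases that activate CDK1 differed: CDC25B stood at 13.2 FPKM, 3.36 times CDC25C at 3.92.

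Markers of chromosomes in dividing cells stood near or above the middle. TOP2A, the topoisomerase that untangles sister chromatids, stood at 51.1 FPKM, and MKI67, which encodes the Ki-67 antigen coating mitotic chromosomes, at 23.7.

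The mitotic kinases and checkpoint genes among the members lay between 14.2 and 22.6 FPKM, with TTK as the exception. A wider set of 6 spindle checkpoint genes spanned 8.74-fold, from TTK to BUB3 (62.0), which is not a member. AURKA, which acts at spindle poles, stood at 20.3 FPKM. AURKB, the kinase of the chromosomal passenger complex, stood at 16.2, and PLK1, which acts from mitotic entry to cytokinesis, at 14.2. The checkpoint proteins BUB1, MAD2L1 and BUB1B, which hold back anaphase until chromosomes are attached, stood at 22.6, 20.5 and 16.0. TTK, the kinase that starts this signal, stood at 7.09. BIRC5 (survivin), the passenger subunit that targets AURKB to centromeres, stood at 22.5.

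Centromere genes held some of the lowest values. CENPA, the histone H3 variant that marks centromeres, stood at 5.82 FPKM, and CENPE, a kinetochore motor, at 8.996. CENPF, a large kinetochore and nuclear matrix protein, stood at 31.2, 5.36 times CENPA.

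Spindle genes ranged from 12.2 to 46.6 FPKM. NUSAP1, which bundles microtubules, and TPX2, which activates AURKA on the spindle, were highest at 46.6 and 38.3. The motors were lower: KIF20A and KIF23, needed for cytokinesis, stood at 21.0 and 16.7, and KIF11, which pushes the spindle poles apart, at 12.2.

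Genes of anaphase were the highest of the mitotic roles, with a median of 44.3 FPKM. PTTG1 (securin), which restrains separase until anaphase, stood at 86.98 and was the second highest of all members. UBE2C, the ubiquitin-conjugating enzyme of the anaphase-promoting complex, stood at 44.3, and its activator CDC20 at 21.9.

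Replication genes were on the whole higher than mitotic genes. The 9 replication genes had a median of 50.4 FPKM with a range of 25.0 to 98.1, and the 28 mitotic genes had a median of 20.8 with a range of 3.92 to 86.98. The ratio of the medians was 2.43. All 9 replication genes lay above the mitotic median, which was itself above 75.7% of coding genes. Of the 28 mitotic genes 20 lay below MCM2, the lowest of the 9, as did 79.7% of all coding genes. The other 8 mitotic genes lay within the replication range, and 3 of them, PTTG1, CCNB1 and TOP2A, were above its median. The contrast depended on which genes stood for replication: with TK1, CDC6, CDT1 and GINS2 added the ratio was 1.76, and with the 4 S-phase entry genes as well 1.52. No error can be given for these ratios, because genes are not replicates.

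**Figure D2:**
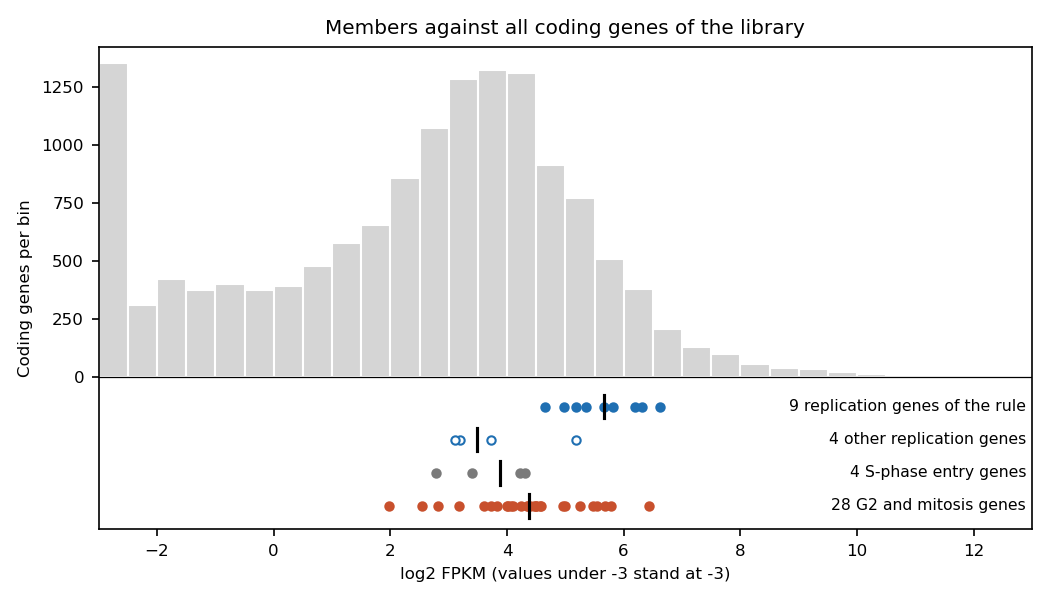
Histogram of log2 FPKM of the 14376 coding genes (grey) above the members as points, with black ticks at each group's median; open points are TK1, CDC6, CDT1 and GINS2. Coding genes below the axis range are counted in its lowest bin. The 9 replication genes all lie at 25.0 FPKM or more, to the right of the mitotic median of 20.8. The mitotic points spread from 3.92 to 86.98.

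Both ends of the order held replication and mitotic genes, but not the same replication genes. Of the 10 highest members 5 were of the 9 replication genes (PCNA, MCM4, TYMS, RRM1 and RRM2). The other 5 were of the 28 mitotic genes (PTTG1, CCNB1, TOP2A, NUSAP1 and UBE2C). Of the 10 lowest, 5 were mitotic (CDC25C, CENPA, TTK, CENPE and KIF11) and 2 the E cyclins. The remaining 3 were replication genes outside the 9 (CDT1, GINS2 and CDC6). The 9 were absent from the 10 lowest, and MCM2, the lowest of them, ranked 18 among the members.

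Other genes of the same processes, 150 in 12 lists, were lower than the members. Of these, 148 had a row and 147 reached 1 FPKM. Their median was 14.2 FPKM, above 65.6% of coding genes. The 48 other replication genes had a median of 13.9, well under the 50.4 of the 9 replication members, and the 75 other mitotic genes, of which 73 had a row, a median of 15.2, closer to the 20.8 of the mitotic members. In these wider lists the replication genes were therefore not the higher group.

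Within replication, supply enzymes were again the highest list. The 7 other nucleotide genes had a median of 31.9, and none was under 10 FPKM. NME1 (77.9) and DUT (44.5), which clears dUTP, were highest, and RRM2B (30.0), the p53-inducible reductase subunit, and the mitochondrial kinase TK2 (13.1) lowest. Polymerase subunits had a median of 13.1, from POLD2 (63.7) and POLE4 (42.8) down to PRIM1 (8.48) and POLE2 (3.003). The origin recognition complex lay between ORC4 (17.7), ORC6 (15.5), ORC1 (8.47) and ORC5 (8.43), all 6 subunits within 2.10-fold. Helicase partners and origin kinases had the lowest median of all 12 lists, 7.58, with TOPBP1 (19.96) and the CDT1 inhibitor GMNN (17.96) highest and GINS1 (6.09) and the origin kinase CDC7 (3.61) lowest. Clamp loader, RPA and lagging-strand genes had a median of 17.8, led by FEN1 (35.2) and RPA2 (25.8), with DNA2 (3.84) and RFC2 (0.961) lowest.

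Regulators of the 2 programmes were spread widely. Among 18 E2F, pocket protein and MuvB genes the median was 10.8 FPKM, led by the histone-binding RBBP4 (83.1) and the E2F partner TFDP1 (37.1), with E2F5 (1.89) and LIN9 (1.84) lowest. Among 9 CDK regulators the median was 9.28, led by the small CDK-binding proteins CKS2 (59.3) and CKS1B (47.6), with BORA (4.55) and CCNF (3.17) lowest.

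In mitosis, kinetochore and centromere genes had the lowest median of the 5 lists. Of 23 of them 22 had a row, with a median of 10.3 FPKM, above 57.0% of coding genes and with 11 at 10 FPKM or more, led by CENPN (37.8) and ZWINT (28.8). MIS18A (4.78), which helps to deposit CENPA, was the lowest with a row, and SPC25 had none. Spindle and cytokinesis genes had a median of 17.6, led by CKAP5 (46.8) and PRC1 (38.6), down to KIF14 (4.21), while KIFC1 had no row. Condensin and sister separation genes had a median of 16.4, led by SMC4 (62.1) and SMC2 (36.3), with separase, ESPL1 (8.54), and NCAPD3 (8.45) lowest. All 17 genes of the anaphase-promoting complex and its partners were above 9 FPKM, between UBE2S (90.4), ANAPC11 (56.0), ANAPC15 (10.7) and CDC26 (9.33). The passenger and shugoshin list also held the checkpoint genes BUB3 (62.0) and MAD1L1 (32.2). It ran from these down to CDCA8 (7.88) and SGO1 (6.96). Of the 40 nearest coding neighbours of KIFC1 16 had a row, against 31 of 40 for SPC25. For neither gene is the missing row read as a lack of expression, and its cause was not tested.

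**Figure D3:**
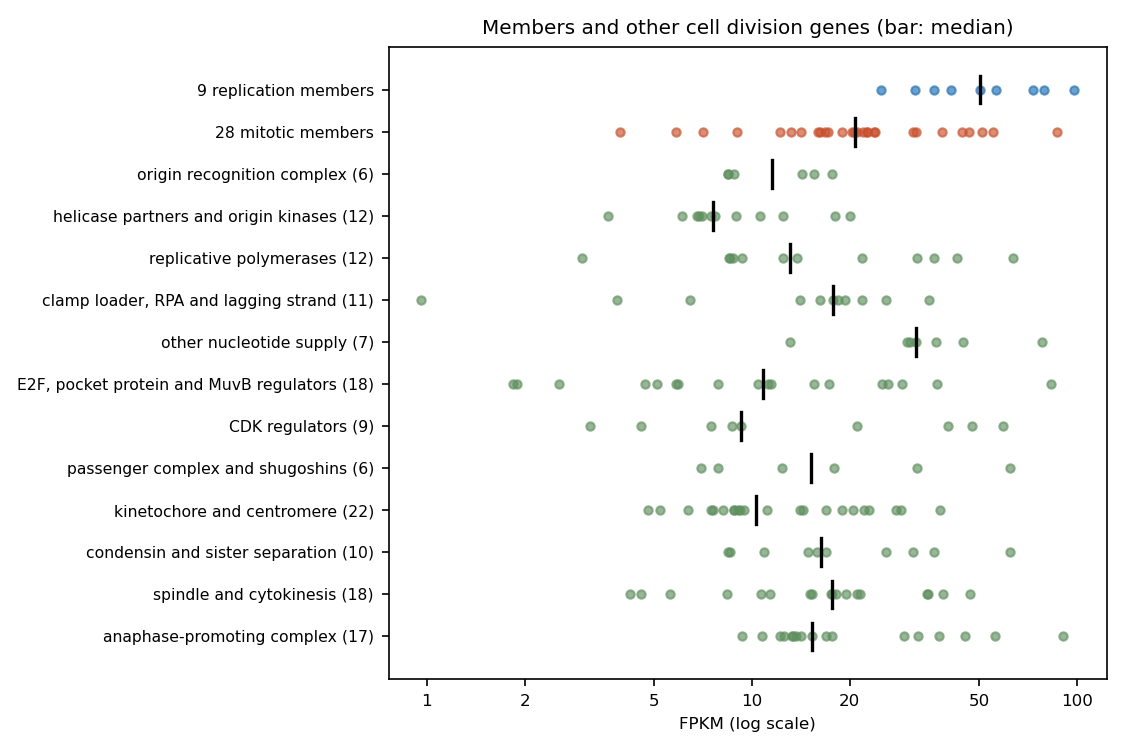
FPKM (log axis) of the 9 replication and 28 mitotic members and of 12 lists of other cell division genes with a row, each point a gene and each black bar a median. The replication members have the highest median, 50.4, the other nucleotide supply genes the next, 31.9, and helicase partners the lowest, 7.58.

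Subunits that assemble together were compared, since a complex needs them side by side. RRM1 was 1.12 times RRM2, and the 4 GINS subunits lay within 1.5-fold of each other, with GINS2 the highest. In the passenger complex BIRC5 (22.5), INCENP (17.9) and AURKB (16.2) were near each other and CDCA8 (7.88) lower, a 2.86-fold range. In the clamp loader that places PCNA, RFC1 (18.4), RFC4, RFC3 and RFC5 (14.1) lay within 1.31-fold, and RFC2 stood 19.1-fold below RFC1. The 5 MCM subunits among the members, which are not the whole ring, spanned 3.18-fold. The complete GINS, ORC and RPA sets spanned 1.5-fold, 2.10-fold and 1.34-fold. Differences of this size within a complex have no replicate check here.

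Some members share sequence or strand with other genes, and how shared reads were assigned is not given in the sources used here. TYMS overlaps ENOSF1, which is transcribed from the other strand and stood at 27.4 FPKM, 0.375 times TYMS. Whether the library kept strand is not given either, so part of each value cannot be told apart from the other. The processed copies UBE2CP5 and MAD2L1P1 stood at 6.54 and 3.21 FPKM, 0.148 and 0.156 times their parent genes. For PTTG1, the near-identical PTTG2 and PTTG3P had no row, and neither had the copies of PCNA and RRM2 that were looked for. PTTG1, PCNA and RRM2 may therefore hold reads of their copies, which was not tested.

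The promoters of the members were searched for the letters that E2F, MuvB and NF-Y are known to bind. The set of RefSeq promoters used here, 250 bases before and 50 after a start on GRCh38.p14, covered 35 of the 45 genes. MCM4, MCM5, CCNE2, CDK2, AURKA, TTK, BIRC5, FOXM1, TPX2 and UBE2C had no entry in that set and were not searched. The E2F pattern was TTTCCCGC, TTTCGCGC, TTTGCCGC or TTTGGCGC. The pattern of the cell cycle genes homology region (CHR), the MuvB site of mitotic promoters, was TTTGAA or TTTAAA, and the NF-Y box was CCAAT. Each was searched on both strands, and a gene counted if any of its windows held a match.

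The following stretches before the start are shown because they carry the E2F pattern of replication and S-phase entry genes; capitals mark every E2F, CHR and CCAAT match, on either strand. They are PCNA (chr20:5126623-5126732, minus strand), MCM6 (chr2:135876444-135876603, minus strand), TYMS (chr18:657593-657652, plus strand) and E2F1 (chr20:33686386-33686505, minus strand), all on GRCh38.p14.
PCNA: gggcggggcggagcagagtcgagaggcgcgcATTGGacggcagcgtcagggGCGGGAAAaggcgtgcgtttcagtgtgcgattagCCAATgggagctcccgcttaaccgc
MCM6: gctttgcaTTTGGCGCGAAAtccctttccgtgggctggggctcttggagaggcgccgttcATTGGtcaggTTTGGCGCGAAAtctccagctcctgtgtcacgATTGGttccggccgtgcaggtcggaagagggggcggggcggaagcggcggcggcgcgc
TYMS: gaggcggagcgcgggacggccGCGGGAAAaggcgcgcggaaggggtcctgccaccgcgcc
E2F1: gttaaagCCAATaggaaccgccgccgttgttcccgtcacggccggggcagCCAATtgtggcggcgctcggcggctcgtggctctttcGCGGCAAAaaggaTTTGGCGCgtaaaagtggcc

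Next come 6 mitotic promoters, shown for the CHR pattern that often followed a CCAAT box. They are CCNB1 (chr5:69167040-69167149, plus strand), CCNB2 (chr15:59105036-59105145, plus strand), PTTG1 (chr5:160421745-160421854, plus strand), KIF20A (chr5:138179002-138179111, plus strand), PLK1 (chr16:23678779-23678888, plus strand) and CDC20 (chr1:43358871-43358980, plus strand), on the same build and with capitals as before.
CCNB1: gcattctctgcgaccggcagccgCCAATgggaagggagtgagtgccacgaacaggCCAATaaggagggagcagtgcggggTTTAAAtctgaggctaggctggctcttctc
CCNB2: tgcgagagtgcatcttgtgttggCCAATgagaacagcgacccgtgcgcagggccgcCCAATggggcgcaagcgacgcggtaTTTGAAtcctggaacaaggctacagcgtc
PTTG1: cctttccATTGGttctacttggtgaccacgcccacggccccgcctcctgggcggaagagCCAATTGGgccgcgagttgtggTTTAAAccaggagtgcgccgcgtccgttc
KIF20A: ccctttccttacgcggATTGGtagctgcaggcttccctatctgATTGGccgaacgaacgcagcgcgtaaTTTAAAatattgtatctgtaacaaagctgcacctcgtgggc
PLK1: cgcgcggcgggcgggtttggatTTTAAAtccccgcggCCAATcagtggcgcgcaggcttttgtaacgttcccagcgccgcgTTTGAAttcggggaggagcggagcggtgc
CDC20: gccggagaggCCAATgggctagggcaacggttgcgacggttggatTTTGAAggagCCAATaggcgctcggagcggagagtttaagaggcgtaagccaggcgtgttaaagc

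The E2F pattern was found in 9 of 13 replication and S-phase entry promoters (PCNA, MCM2, MCM3, MCM6, TYMS, CDC6, CDT1, GINS2 and E2F1) and in 3 of 22 mitotic ones (CDK1, NUSAP1 and CENPA). Of all coding genes with a promoter, 5.40% held it. MCM6 held it in a 12-base run read from both strands, at 2 places. The other 4 genes of replication and entry, RRM1, RRM2, TK1 and CCNE1, had no match to the 8-base E2F pattern. They held the CHR pattern, as did 24.7% of all coding genes. With the first T of the E2F pattern left off, 12 of the 13 matched, all but CCNE1. RRM1, RRM2 and TK1 thus held the shorter pattern. It was also found in 7 of the 22 mitotic promoters, against 20.5% of coding genes. In the narrower window of 100 bases before and 50 after the start, this shorter pattern was found in 2 of the 22 mitotic promoters, against 11.7% of coding genes.

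The CHR pattern showed the reverse. It was found in 19 of 22 mitotic promoters and in 4 of 13 replication and entry promoters, against 24.7% of coding genes. CCNA2, AURKB and BUB1 were the mitotic genes without these letters in the window. CCAAT was found in 20 of 22 mitotic and 9 of 13 replication and entry promoters, against 42.1% of coding genes. CHR and CCAAT stood together in 17 of 22 mitotic promoters and in 3 of 13 of the others, against 12.5% of coding genes. All 35 members held at least 1 of the 3 patterns, against 56.5%.

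**Figure D4:**
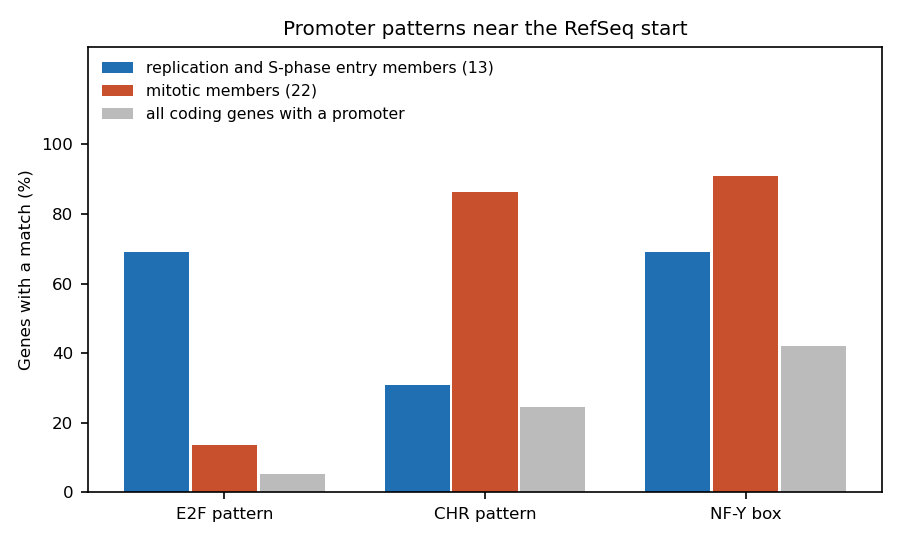
Percentage of genes whose RefSeq promoter window of 300 bases held each pattern, for replication and S-phase entry members, mitotic members and all coding genes with a promoter. The E2F bar is tallest for replication and entry (9 of 13) and the CHR bar for mitosis (19 of 22), while the NF-Y box, CCAAT, is frequent in both.

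Positions were alike in many mitotic promoters, a pattern described after it was seen. In CCNB1 the CHR pattern began 30 bases before the start and the nearest CCAAT 55 before it; in CCNB2 they began at 29 and 54. PTTG1 and PLK1 also had a CHR match at 29 bases. Of 22 mitotic promoters 10 had a CHR match that began 50 to 20 bases before a start, as did 3 of the 13 others (CCNE1, RRM2 and TK1), against 4.05% of coding genes. A CHR match that began 20 to 40 bases after the beginning of a CCAAT box was found in 9 mitotic promoters and in RRM2, against 1.38% of coding genes. Of these, CENPF had both matches after the start, and CDK1 had the pair only in a window other than the first listed. A match is a run of letters and not a measured binding site.

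**Figure D5:**
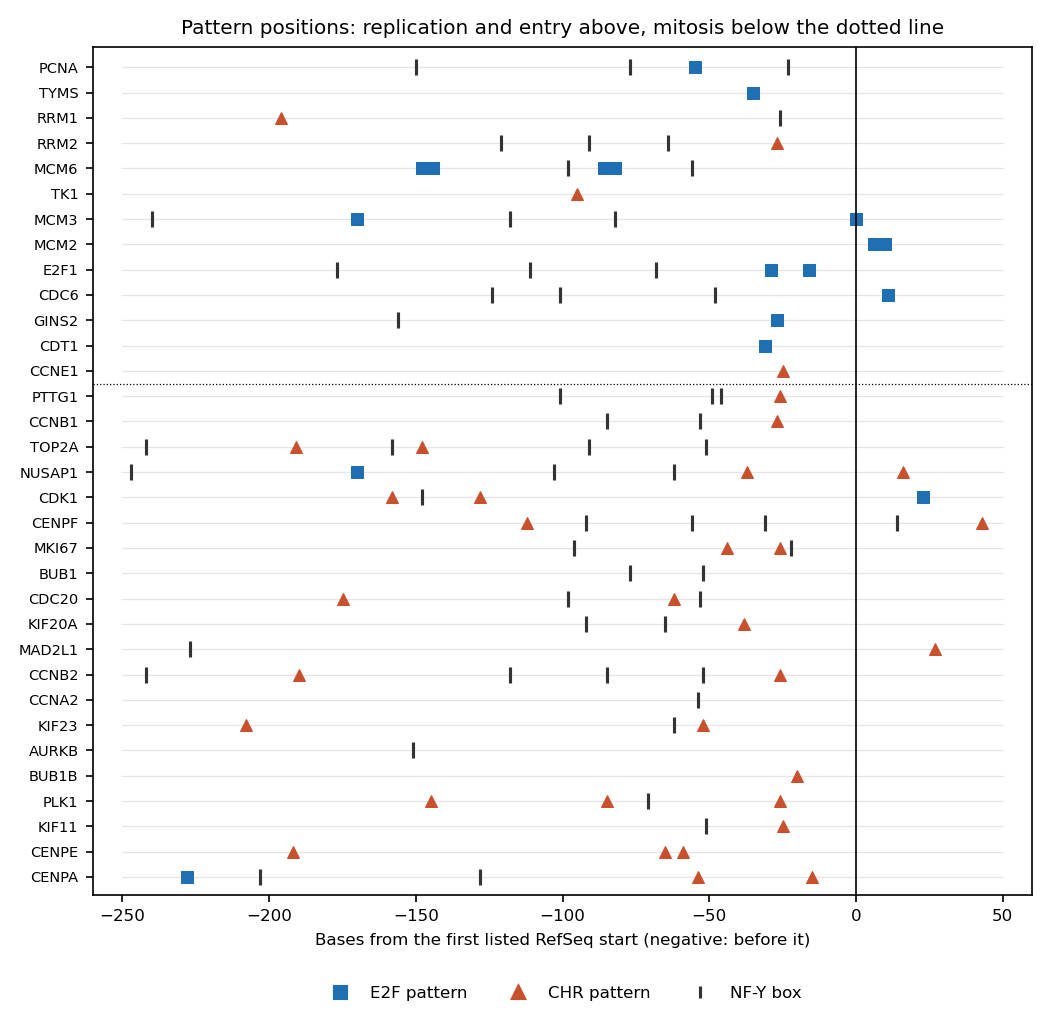
Position of each match, in bases from the first listed start, for the 33 members with a match in that window; replication and entry genes stand above the dotted line and mitotic genes below, each ordered by FPKM. Squares (E2F) lie mostly above the line, and triangles (CHR) mostly below it, many of them 20 to 50 bases before the start.

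Levels overlapped between members with and without each pattern. The 12 members with an E2F match had a median of 28.3 FPKM with a range of 5.82 to 98.1, and the 23 without one a median of 20.5 with a range of 3.92 to 86.98. The 23 with a CHR match had a median of 21.0 and the 12 without one 21.3. The 29 with a CCAAT match had a median of 21.9 with a range of 3.92 to 98.1, and the 6 without one a median of 12.5 with a range of 6.89 to 72.9, the widest gap of the 3 patterns. The ranges with and without an E2F match overlap almost entirely. CCNB1 and CCNB2, whose CCAAT and CHR matches lie at nearly the same places, stood at 55.0 and 18.9 FPKM.

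The promoter windows of 7 of the 35 members with a promoter overlapped that of a coding gene on the other strand. The share among all coding genes was not counted, so this number is not read as a trait of the members. NUSAP1 shares its start region with OIP5, a centromere gene of the CENPA deposition pathway, and stood 8.95 times as high (46.6 against 5.21 FPKM). PCNA stood 6.49 times as high as its neighbour CDS2 and TK1 3.14 times as high as AFMID. MCM2 and KIF20A were level with theirs, at 1.04 times TPRA1 and 0.985 times BRD8. CDC25B stood at 0.722 times CENPB and CDC25C at 0.295 times FAM53C.

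Several members are reported targets of miRNAs that were counted in the small RNA library. The mature sequences are given as the files list them, with T for U and the seed, bases 2 to 8, in capitals, because the seed is the part that pairs with a target.
miR-17-5p: cAAAGTGCttacagtgcaggtag
miR-20a-5p: tAAAGTGCttatagtgcaggtag
miR-15a-5p: tAGCAGCAcataatggtttgtg
miR-16-5p: tAGCAGCAcgtaaatattggcg
miR-34a-5p: tGGCAGTGtcttagctggttgt
miR-26a-5p: tTCAAGTAatccaggataggct
miR-24-3p: tGGCTCAGttcagcaggaacag
miR-542-3p: tGTGACAGattgataactgaaa

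miR-17-5p and miR-20a-5p, which share a seed and are reported to target E2F1, had 7225 and 8460 reads of 11785001. For CCNE1, the lowest cyclin gene of the members, miR-16-5p had 6611 reads and miR-15a-5p, of the same seed, 204. For CCNE2, miR-26a-5p had 206110 reads, 1.75% of all miRNA reads and rank 7, and miR-34a-5p had 11289. miR-24-3p, reported for CCNA2 and AURKB, had 28067 reads, and miR-542-3p, reported for BIRC5, had 239. These 9 pairs cover 6 of the 45 members and are not a full list of reported targets. With 1 library of each kind, these values do not show whether a miRNA lowers a member.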

How the data were processed

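Gene levels are the FPKM values that the authors deposited for 1 mRNA library, listed by Ensembl identifier. miRNA values are raw read counts per mature miRNA as deposited. The submitters' processing notes name cutadapt and the human builds hg19 and GRCh37; aligner, FPKM program, strand, mRNA selection and mRNA depth are not stated there or in the labels, so FPKM values carry no interval, and precision is unknown. For the mRNA library the labels repeat the small RNA library protocol. miRNA depth was 11785001 reads.

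Members were matched by symbol, other genes by symbol and then by Ensembl identifier. Medians, ranges, ranks and ratios were computed with pandas 2.3.3. Simulated checks covered only the search for planted E2F patterns and a ratio of medians whose value was fixed by construction. A pseudocount of 1 was used for log2 values. No test was possible with 1 library. Named were all members, the 2 highest and 2 lowest genes of each other list (genes with no row first), and genes that overlap or copy a member; further subunits of complexes, neighbours, and position patterns were named after their values were seen. Members and lists were chosen with earlier results of these data known. Promoters and gene order came from RefSeq on GRCh38.p14, for which no coordinates were mixed with the files. Promoter windows were listed in the direction of the gene, checked by the place of the TATA box (2.82% of plus-strand and 3.18% of minus-strand windows as listed, 0.362% and 0.147% when reversed).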

Additional observations from a re-analysis of the deposited data

How the results depend on the processing

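The values describe 1 library of unknown depth, so neither replicate error nor counting error of the FPKM values can be given. No paired analysis was possible because each kind of library had 1 sample and no result comes from a test. All 45 members stayed above the threshold at 0.1 FPKM, 44 at 5, 38 at 10 and 26 at 20 FPKM. Of the 14376 coding genes 8521 reached 5 FPKM, 6291 reached 10 and 3637 reached 20, and those at 0.1 were not counted. The ratio of replication to mitotic medians, 2.43, stayed above 1 in every alternative run among the members. It was 1.76 with 13 replication genes and 1.52 with 17 replication and entry genes. It was 2.47 without MKI67 and TOP2A, 2.35 without CDC25B and CCNA2, and 2.23 without the highest gene of each group. As a fold between means of log2 values it was 2.35 with a pseudocount of 1, 2.43 with 0.1 and 1.89 with 10. All these runs used members only. In the wider lists the order was reversed, with a median of 13.9 FPKM for the other replication genes and 15.2 for the other mitotic genes. The contrast therefore depends on the choice of genes. The member median lay above 77.1% of coding genes, 83.4% of all listed genes and 70.4% of coding genes at 1 FPKM or more. With missing rows set to 0 the median of the other division genes moved from 14.2 to 14.1 FPKM. The E2F count in mitotic promoters moved from 3 to 1 in the window of 100 bases before and 50 after the start, and to 7 with the 7-base pattern, which itself fell to 2 in that shorter window. Counts of CHR and CCAAT, and of the 8-base E2F pattern in replication and entry promoters, stayed within 1.5 times in each window; the use of the first listed window alone was added after seeing the data.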

Other observations

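RFC2, a subunit of the clamp loader that every dividing cell needs, was listed at 0.961 FPKM, and was the single gene of 148 listed division genes outside the members that stood under 1 FPKM. The other 4 RFC subunits lay between 14.1 and 18.4. RFC2 was singled out after its value was seen.

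Securin stood at 86.98 FPKM and its partner separase, ESPL1, at 8.54. The conjugating enzyme UBE2S (90.4) was higher than every other listed gene of the anaphase-promoting complex, among which ANAPC11 (56.0) and ANAPC5 (45.3) came next. The small CDK-binding proteins CKS2 and CKS1B, at 59.3 and 47.6 FPKM, stood above CDK1 (32.0) and CDK2 (18.7).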
